A study of Mus musculus with 18 samples.

Results

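Primary microcephaly is a brain that is small from birth, and most of the genes mutated in its human forms encode proteins of the centrosome or the spindle pole. The 10 genes described here are Aspm, Wdr62, Cdk5rap2, Pcnt, Cenpj, Stil, Cep152, Cep63, Nde1 and Mcph1. Their probe sets were taken by annotation alone: every probe set assigned to exactly 1 of the 10 genes was included, whatever its value. This gave 7 of the 22626 probe sets of the cortex A chip (6 genes), 13 of the 22511 of the cortex B chip (7 genes) and 20 of the 45037 of the array used for the samples titled rest (10 genes). The rest array holds the probe sets of both cortex chips, so there are 20 distinct probe sets.

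Mouse brain RNA was measured at postnatal day 7 on 18 Affymetrix arrays, in 6 groups of 3: knockout and wild-type cortex on the A chip, knockout and wild-type cortex on the B chip, and knockout and wild-type rest. The conditional knockout mice carried Cre driven by nestin, a gene of neural progenitors. One Brca1 allele was floxed around exons 5 to 13, and the other was a null allele with a neo cassette turned round at the 5′ end of exon 11. The labels call the controls wild type and give neither their Brca1 alleles nor their Cre status. The series design names 3 wild-type animals and 3 knockout animals for cortex, and does not say what tissue the word rest covers.

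During cortical development, progenitors at the ventricle divide many times before they make neurons, and each division needs a duplicated centrosome to build and orient the spindle. Loss of a spindle-pole or centriole gene shortens this series of divisions or kills the dividing cells, which leaves too few neurons. Neurons of the mouse cortex are made almost wholly before birth, whereas granule cell precursors of the cerebellum still divide in the first postnatal week. Brca1 itself acts in repair of DNA double-strand breaks and is also found at centrosomes.

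The deposited signals left many probe sets blank on some arrays, and a probe set with a value is called listed here. Between 54% and 58% of A chip probe sets were listed per array, with 33.6% to 42.6% for cortex B and 49.2% to 51.6% for rest. The 3′ over 5′ actin ratio, a sign of RNA quality, ran between 1.37 and 1.51 for cortex A, between 1.86 and 2.4 for cortex B and between 1.64 and 1.96 for rest. The Y-linked gene Eif2s3y was listed on knockout arrays 1 and 2 and blank on the other 4 arrays of each table, so genotype was partly joined with sex. Brca1 probe set 1424629_at had signals of 51.4, 44.0 and 61.4 in knockout cortex, against 38.0, 36.9 and 48.9 in wild-type cortex (log2 change 0.25, SE 0.159, limma adjusted p = 0.496). In rest it had 118.5, 86.0 and 134.8 in knockout and 101.8, 111.8 and 114.3 in wild type (log2 change 0.03, SE 0.17, limma adjusted p = 0.978). The groups overlapped in both tables. Which exons this probe set reads is not given in the sources used here, so it does not check the labels. Of the markers for the labelled tissue, Emx1, a transcription factor of the cortex, was listed on all 6 cortex B arrays and was blank on all 6 rest arrays. En2, a transcription factor of the midbrain and cerebellum, was listed on all 6 rest arrays and on 1 of the 6 cortex A arrays. Other markers did not separate the tissues in this way: Neurod6 and Tbr1, of cortical neurons, were also listed on 5 and 4 of the 6 rest arrays, and Slc17a6, a glutamate transporter of thalamus and hindbrain, was listed on all 6 cortex A arrays, at 317.8 to 409.5 in knockout and 331.9 to 356.8 in wild type.

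Few of the microcephaly probe sets were listed on all 6 arrays of a table. On the cortex A chip 1 of 7 was (table-wide 48.6%), on the cortex B chip 4 of 13 (table-wide 27.9%) and in rest 4 of 20 (table-wide 42.8%). On the A chip 5 of the 7 were blank on all arrays, against 36.2% of the table. The B chip left 6 of 13 blank throughout, against 50%, and rest 10 of 20, against 39.9%. Knockout arrays listed 5 of 21 member values on the A chip, 15 of 39 on the B chip and 18 of 60 in rest, where wild-type arrays listed 6, 16 and 23. In rest the 3 knockout arrays listed 5, 7 and 6 of the 20 probe sets and the 3 wild-type arrays 7, 7 and 9, so the ranges met at 7. Blank cells carry no signal here, and whether the transcript was absent or below the detection limit of the array cannot be read from them.

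**Figure D1:**
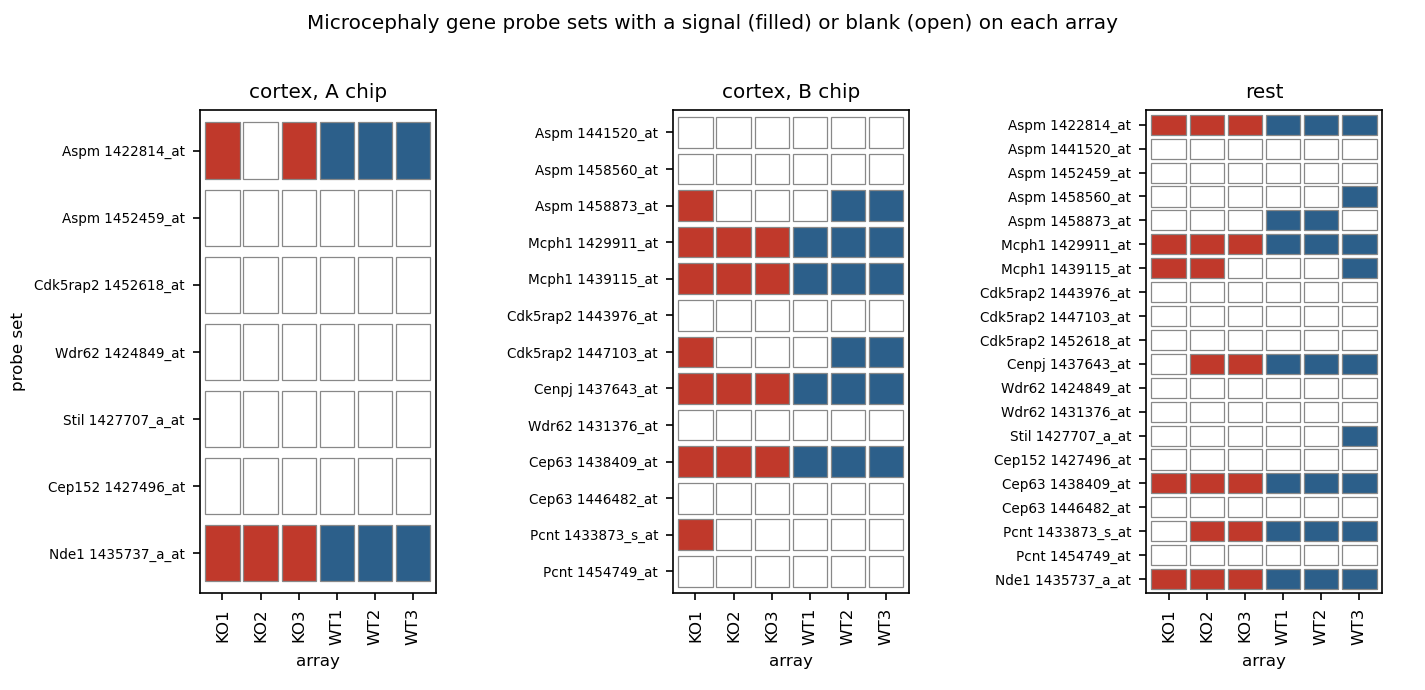
Arrays that list each member probe set, in each of the 3 tables, with knockout arrays left of wild-type arrays; filled cells are listed signals and empty cells are blanks. In rest, 10 of the 20 probe sets were blank on all 6 arrays, and Wdr62 was blank on all 18 arrays.

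A probe set was tested where at least 2 arrays of each genotype listed it, which was 2 of the 7 on the A chip, 4 of the 13 on the B chip and 6 of the 20 in rest. These 12 tests covered 6 of the 10 genes: Aspm, Mcph1, Cenpj, Cep63, Pcnt and Nde1. Knockout and wild type were compared on log2(signal + 16) with limma, which understates the change of dim probe sets, and a probe set was called at a Benjamini-Hochberg adjusted p under 0.05 over the whole table. None of the 12 tests was called, and 0 of them had an unadjusted limma p under 0.05, against 15.7% of the probe sets tested in cortex A, 7.39% in cortex B and 10.5% in rest. Over all probe sets tested, 3.02% were called on the cortex A chip, 0.281% on the cortex B chip and 0.313% in rest, so a count of 0 among 2, 4 and 6 probe sets was near the background. The 95% intervals spanned fold changes between 0.60 and 1.24 for cortex A, between 0.63 and 1.72 for cortex B and between 0.55 and 1.35 for rest, so this design does not exclude changes inside those bounds.

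Aspm keeps the spindle poles focused and the spindle aligned in dividing neural progenitors, and its loss is the most frequent cause of human primary microcephaly. Of its 5 probe sets, 1422814_at was the one listed widely. In cortex on the A chip its signal was 57.3 and 39.8 on knockout arrays 1 and 3 and blank on knockout array 2, against 56.1, 42.3 and 81.1 on the wild-type arrays. The groups overlapped, and the means were 48.6 ± 12.4 in knockout (SD, n = 2) and 59.8 ± 19.7 in wild type (SD, n = 3). The log2 change was -0.21 (SE 0.232, 95% interval -0.73 to 0.31, limma adjusted p = 0.731). It was -0.02 without knockout array 3 or without wild-type array 3, -0.41 without knockout array 1 and -0.39 without wild-type array 2.

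In rest, Aspm 1422814_at was listed on all 6 arrays, at 91.6, 63.4 and 114.9 in knockout against 118.7, 98.1 and 148.9 in wild type. Knockout array 2 was lowest and wild-type array 3 highest, and the groups overlapped, since knockout array 3 lay above wild-type array 2. The means were 89.9 ± 25.8 in knockout and 121.9 ± 25.6 in wild type (SD, n = 3 each), a log2 change of -0.39 (SE 0.212, 95% interval -0.87 to 0.08, limma adjusted p = 0.571). This was the largest of the 12 changes in size, and 2 arrays weighed on it: it was -0.20 without knockout array 2 and -0.26 without wild-type array 3. With a term for arrays that list Eif2s3y, which leaves knockout array 3 alone to be set against the wild-type arrays, it was -0.06 (limma adjusted p = 0.988).

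The other Aspm probe sets were listed on few arrays. Probe set 1458873_at had a signal of 130.3 on knockout array 1 of the cortex B chip, against 176.4 and 250.4 on wild-type arrays 2 and 3. The same probe set was blank on all knockout arrays of rest, against 36.9 and 32.3 on wild-type arrays 1 and 2. Probe set 1458560_at was listed once, at 33.8 on wild-type array 3 of rest. Probe sets 1441520_at and 1452459_at were blank on every array that holds them. Taken over its 5 probe sets, Aspm was listed in 3 of 15 knockout values and 6 of 15 wild-type values of rest. The difference lay in the low wild-type values of 1458873_at and 1458560_at, at 32.3 to 36.9. Over all probe sets of rest, 6.63% were listed on fewer knockout than wild-type arrays and 7.52% on fewer wild-type than knockout arrays. These shares count single probe sets, as 1458873_at and 1458560_at would be counted, and not the values of a gene.

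Promoters of genes that peak in mitosis often hold CCAAT boxes, bound by NF-Y, and the cell cycle homology region, bound by the DREAM and MuvB complexes. Both motifs were searched on both strands in the 250 bases before the start of each gene, from RefSeq on GRCm38.p6, which held a window for 9 of the 10 genes; Mcph1 was the gene not matched. CCAAT was in the windows of 5 of the 9 genes, against 33.8% of all 32851 windows: Aspm, Cep152, Stil and Wdr62 held it 3 times each and Nde1 held it once. TTTGAA, the letters searched for the cell cycle homology region, was in 0 of the 9 windows, against 16% of all windows. Other spellings of this region and bases after the start were not searched, so its absence from these genes cannot be read from this count. A match is a description of the letters, not of binding. The window of Aspm is shown with its CCAAT boxes in capitals, all of them on the minus strand and so read as ATTGG, beside the window of Cep63, a gene whose probe set 1438409_at was listed on every array that holds it, in which neither motif was found. The 3 boxes of Aspm begin 113, 88 and 12 bases before the start.
Aspm, chr1:139454523-139454772, plus strand: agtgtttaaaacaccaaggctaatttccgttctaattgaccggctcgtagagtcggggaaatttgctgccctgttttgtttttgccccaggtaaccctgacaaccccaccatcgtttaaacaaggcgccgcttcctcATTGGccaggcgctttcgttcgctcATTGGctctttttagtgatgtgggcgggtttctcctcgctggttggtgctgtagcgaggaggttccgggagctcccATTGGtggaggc
Cep63, chr9:102626125-102626374, minus strand: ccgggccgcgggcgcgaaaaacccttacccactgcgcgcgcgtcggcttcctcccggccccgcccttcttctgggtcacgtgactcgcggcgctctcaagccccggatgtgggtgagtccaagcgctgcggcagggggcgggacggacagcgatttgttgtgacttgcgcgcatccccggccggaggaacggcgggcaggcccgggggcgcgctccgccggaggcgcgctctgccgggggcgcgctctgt

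Wdr62, a scaffold at the spindle pole that acts with Aspm, was blank on all 18 arrays. Its window is shown because it carries as many CCAAT boxes as that of Aspm, on both strands (in capitals), 77, 45 and 18 bases before the start.
Wdr62, chr7:30280422-30280671, minus strand: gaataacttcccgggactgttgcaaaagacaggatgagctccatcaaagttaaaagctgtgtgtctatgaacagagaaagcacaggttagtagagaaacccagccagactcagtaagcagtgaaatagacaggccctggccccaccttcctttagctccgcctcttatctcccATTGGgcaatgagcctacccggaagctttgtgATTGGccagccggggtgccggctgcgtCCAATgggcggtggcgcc

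Cdk5rap2 anchors the gamma-tubulin ring complex, which nucleates microtubules, to the material around the centrioles. It had no tested probe set. Probe set 1447103_at had a signal of 61.9 on knockout array 1 of the cortex B chip, against 35.7 and 127.8 on wild-type arrays 2 and 3, and the other Cdk5rap2 values of the 3 tables were blank.

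Pcnt encodes pericentrin, the scaffold of that same material, and its loss in humans causes a primordial dwarfism with microcephaly. Its probe set 1433873_s_at, whose suffix marks probes that may match more than 1 transcript, was listed on the cortex B chip on knockout array 1 alone, at 258.0. In rest it had 93.1 and 175.3 on knockout arrays 2 and 3, against 139.5, 151.7 and 133.4 on the wild-type arrays. The 2 knockout values lay below and above all 3 wild-type values. The means were 134.2 ± 58.1 in knockout (SD, n = 2) and 141.5 ± 9.31 in wild type (SD, n = 3), and the log2 change was -0.12 (SE 0.232, 95% interval -0.65 to 0.41, limma adjusted p = 0.904). Its direction rested on knockout array 2, without which it was 0.28. The second probe set, 1454749_at, was blank throughout.

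Cenpj, also known as Cpap, sets centriole length by adding tubulin to the growing centriole. On the cortex B chip its probe set 1437643_at had 119.5, 100.1 and 83.1 in knockout, against 109.3, 119.1 and 122.7 in wild type. The groups overlapped, with knockout array 1 inside the wild-type range and the other knockout arrays below it. The log2 change was -0.20 (SE 0.221, 95% interval -0.67 to 0.28, limma adjusted p = 0.93). It was -0.08 without knockout array 3, -0.31 without knockout array 1 and -0.42 with the term for arrays that list Eif2s3y. In rest the same probe set was blank on knockout array 1 and had 51.3 and 46.4 on knockout arrays 2 and 3, against 77.5, 48.4 and 53.5 in wild type. The groups overlapped there too, and the log2 change was -0.21 (SE 0.21, 95% interval -0.69 to 0.27, limma adjusted p = 0.798), or -0.05 without wild-type array 1.

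Cep63 and Cep152 form the ring at the base of the mother centriole on which a new centriole starts, and Stil brings in the cartwheel from which it grows. Cep63 probe set 1438409_at had, on the cortex B chip, signals of 283.5, 318.4 and 376.2 in knockout against 312.4, 271.4 and 383.3 in wild type. The groups covered nearly the same range, with means of 326.0 ± 46.8 in knockout and 322.4 ± 56.6 in wild type (SD, n = 3 each) and a log2 change of 0.02 (SE 0.187, 95% interval -0.38 to 0.42, limma adjusted p = 0.995). In rest it had 143.9, 156.7 and 174.4 in knockout, against 200.5, 181.1 and 146.9 in wild type. Knockout arrays 2 and 3 lay inside the wild-type range and knockout array 1 just below it, and the log2 change was -0.13 (SE 0.147, 95% interval -0.46 to 0.19, limma adjusted p = 0.813). It was -0.04 without wild-type array 1, -0.07 without knockout array 1 and -0.25 without wild-type array 3.

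The second Cep63 probe set, 1446482_at, was blank throughout. Cep152 was blank on all 12 arrays of the A chip and rest tables, and the B chip holds no probe set for it. Stil was listed once, at 34.5 on wild-type array 3 of rest. For these 2 genes no comparison between genotypes could be made.

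Nde1 binds Lis1 and dynein and couples spindle orientation to the cell cycle in cortical progenitors, and its loss in humans gives a small, smooth brain. In cortex on the A chip, probe set 1435737_a_at had 68.0, 84.3 and 65.0 in knockout, against 73.1, 66.1 and 78.8 in wild type. The groups overlapped, with means of 72.4 ± 10.4 in knockout and 72.7 ± 6.36 in wild type (SD, n = 3 each) and a log2 change of -0.01 (SE 0.143, 95% interval -0.32 to 0.31, limma adjusted p = 0.987). In rest it had 125.8, 129.1 and 132.9 in knockout, against 142.6, 97.6 and 171.7 in wild type. All 3 knockout values fell inside the wild-type range, which was wider, with SDs of 3.55 in knockout and 37.3 in wild type. The log2 change was -0.05 (SE 0.185, 95% interval -0.46 to 0.37, limma adjusted p = 0.957).

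Mcph1, or microcephalin, delays chromosome condensation and the entry into mitosis, and in human cell lines it has been reported to act upstream of BRCA1 in the response to DNA damage. Its probe set 1429911_at had 277.7, 306.5 and 268.3 in knockout cortex on the B chip, against 263.7, 259.5 and 345.6 in wild-type cortex. The groups overlapped, and the log2 change was -0.02 (SE 0.182, 95% interval -0.41 to 0.37, limma adjusted p = 0.997). In rest it had 98.0, 98.7 and 101.4 in knockout, against 87.8, 91.5 and 86.9 in wild type. Here all 3 knockout arrays lay above all 3 wild-type arrays, the one case among the 12 tests in which the groups did not overlap. In rest, 8.42% of all probe sets tested had every knockout array above every wild-type array. The means were 99.4 ± 1.8 in knockout and 88.7 ± 2.4 in wild type (SD, n = 3 each), a log2 change of 0.14 (SE 0.132, 95% interval -0.16 to 0.44, limma adjusted p = 0.776).

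The second Mcph1 probe set, 1439115_at, had 124.4, 193.4 and 112.4 in knockout cortex on the B chip, against 85.0, 124.5 and 146.5 in wild-type cortex. The groups overlapped, with knockout array 2 the highest and wild-type array 1 the lowest, and the log2 change was 0.24 (SE 0.256, 95% interval -0.31 to 0.79, limma adjusted p = 0.93). It was 0.02 without knockout array 2, 0.04 without wild-type array 1, 0.38 without knockout array 3 and 0.39 without wild-type array 3. In rest this probe set was listed at 37.5 and 35.7 on knockout arrays 1 and 2 and at 33.5 on wild-type array 3, and was not tested.

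**Figure D2:**
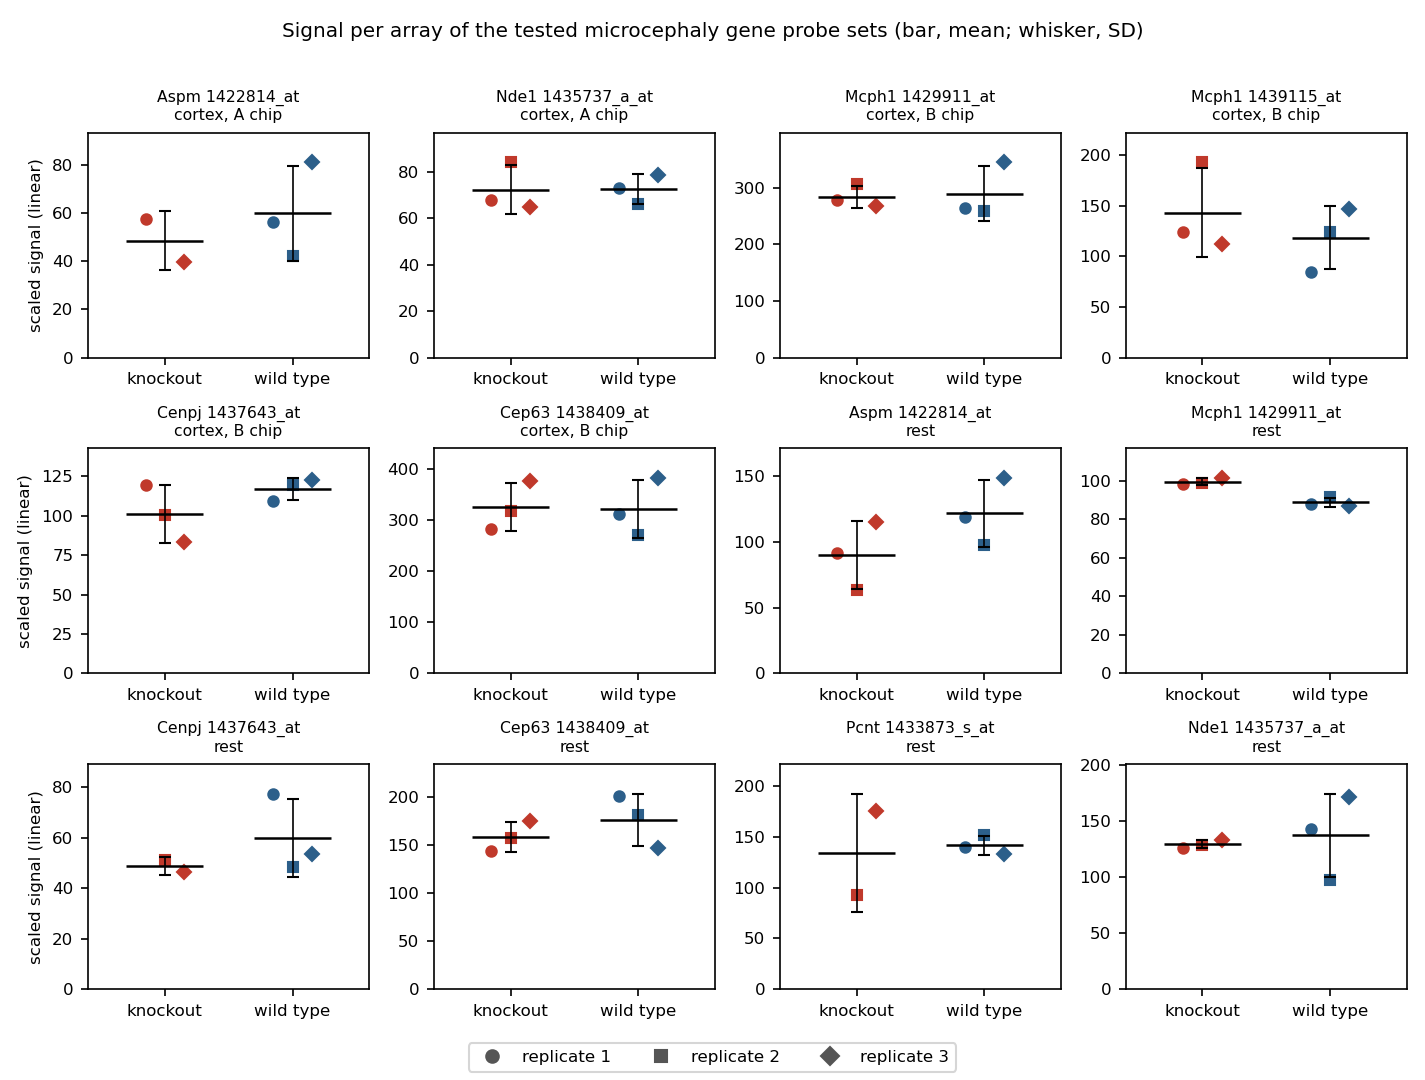
Scaled signal (linear axes that start at 0) of each tested member probe set on each array, with knockout arrays left of wild-type arrays and bars at the group means and whiskers of 1 SD; blank arrays have no point. The groups overlap in every panel but Mcph1 1429911_at in rest, with knockout at 98.0 to 101.4 and wild type at 86.9 to 91.5.

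Across the tables, the log2 change was below 0 in 2 of 2 tests on the A chip (table-wide 52.1%), 2 of 4 on the B chip (table-wide 50%) and 5 of 6 in rest (table-wide 49.8%). With 1 probe set a gene, the median change of the genes tested was -0.11 on the A chip, -0.02 on the B chip and -0.13 in rest, against medians of -0.01, 0.00 and 0.00 over all probe sets tested. In these bulk samples, fewer dividing cells and less of a transcript in each dividing cell cannot be told apart. With 3 arrays a group precision was limited: the narrowest 95% interval, for Mcph1 in rest, ran from -0.16 to 0.44 on the log2 scale.

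**Figure D3:**
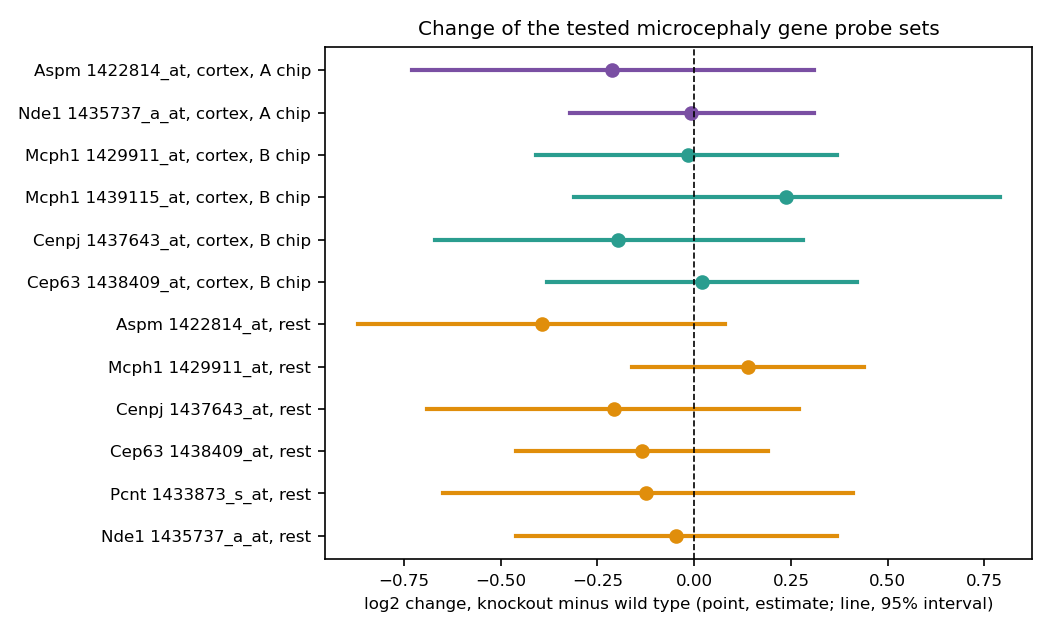
Knockout minus wild-type change of log2(signal + 16) for the 12 tested member probe sets, with 95% intervals as horizontal lines and 0 marked. All 12 intervals include 0, the largest change in size being -0.39 for Aspm in rest.

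Whether the knockout changed a gene differently in rest and in cortex was tested as an interaction in 1 fit of the A chip and rest tables, and the values of both tables are changes, not levels. Aspm and Nde1 were the member genes tested in both. For Aspm the change in rest minus that in cortex was -0.18 (SE 0.34, 95% interval -0.92 to 0.55, limma adjusted p = 0.901). For Nde1 it was -0.04 (SE 0.234, 95% interval -0.54 to 0.46, limma adjusted p = 0.969). Of 11959 shared probe sets, 0.0502% were called in this test. The B chip was not joined to rest in such a fit, so the differences of Mcph1, Cenpj and Cep63 between cortex and rest were not tested.

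Other genes of human primary microcephaly were read from a list of 21. None of the 8 tested on the A chip, the 9 on the B chip or the 15 in rest was called. Their medians were -0.09, -0.02 and -0.15, against -0.01, 0.00 and 0.00 over all probe sets tested. In rest the log2 change was below 0 for 13 of the 15 (table-wide 49.8%). The summed signal of the 14 genes listed on every array was 4666.7 to 5134.9 in knockout and 5145.6 to 5361.2 in wild type. These ranges did not overlap but nearly met. The sum includes Mfsd2a, at 274.1 to 422.7 in knockout and 452.6 to 495.2 in wild type. The sum also includes Cit, at 570.3 to 669.6 in knockout and 721.3 to 744.4 in wild type. Each of these gaps is wider than the gap between the sums. Their separation therefore rested on single genes, Mfsd2a and Cit among them.

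The lowest p of this list in rest was that of Mfsd2a, the transporter that carries lysolipids with docosahexaenoic acid across the blood-brain barrier. It had 308.9, 274.1 and 422.7 in knockout, against 495.2, 452.6 and 483.5 in wild type (log2 change -0.51, SE 0.145, limma adjusted p = 0.241), and with the term for arrays that list Eif2s3y the change was -0.17. Cit, the citron kinase of the cleavage furrow, had 669.6, 637.3 and 570.3 in knockout, against 724.3, 744.4 and 721.3 in wild type (log2 change -0.22, SE 0.0839, limma adjusted p = 0.392). For both genes every knockout array lay below every wild-type array, as did 9.13% of all probe sets tested in rest, and neither gene passed the adjusted test. In cortex the lowest p was that of Phc1, a Polycomb protein, with a log2 change of -0.25 on the A chip (SE 0.0998, limma adjusted p = 0.259).

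The partners with which the 10 proteins work were also without a call. Of 27 further genes of centriole duplication and centrosome structure, 13, 12 and 22 were tested on the A chip, the B chip and in rest, with medians of 0.02, -0.06 and 0.03. Cetn2, a centrin of the centriole, had a log2 change of 0.22 in cortex on the A chip (SE 0.105, limma adjusted p = 0.348) and of -0.22 in rest (SE 0.0911, limma adjusted p = 0.445). Of 29 genes of the gamma-tubulin ring and the spindle pole, 16, 6 and 26 were tested, with medians of -0.04, 0.04 and -0.02. Numa1, which ties dynein to the spindle pole, had 0.30 on the A chip (SE 0.115, limma adjusted p = 0.226). Tpx2, an activator of Aurora A on the spindle, had -0.48 on the B chip (SE 0.215, limma adjusted p = 0.665), where 2 knockout and 2 wild-type arrays listed it. With blanks set to a low signal the Tpx2 change was -0.19, and in rest the same probe set had -0.12. In rest the lowest p of this list were those of Gpsm2, which orients the spindle (log2 change -0.41, SE 0.174, limma adjusted p = 0.456, but -0.10 with the term for arrays that list Eif2s3y and -0.25 without knockout array 2), and Haus4, an augmin subunit (-0.35, SE 0.149, limma adjusted p = 0.456).

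Of 14 dynein and Lis1 genes that act with Nde1, 11, 3 and 13 were tested, with 0 called and medians of -0.04, -0.13 and -0.00. Ndel1, the closest relative of Nde1, had a log2 change of 0.25 in rest (SE 0.0986, limma adjusted p = 0.423), and Dync1i2, a dynein intermediate chain, had -0.19 in cortex on the A chip (SE 0.0841, limma adjusted p = 0.319). Of 10 checkpoint and mitotic entry genes around Mcph1, 6, 2 and 7 were tested, with 0 called and medians of -0.06, 0.14 and 0.00. Cdc25a, a phosphatase that activates cyclin-dependent kinases, had -0.30 on the A chip (SE 0.177, limma adjusted p = 0.473). Its signals there were 39.8 and 40.5 on 2 knockout arrays, against 51.3, 44.9 and 63.9 in wild type.

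**Figure D4:**
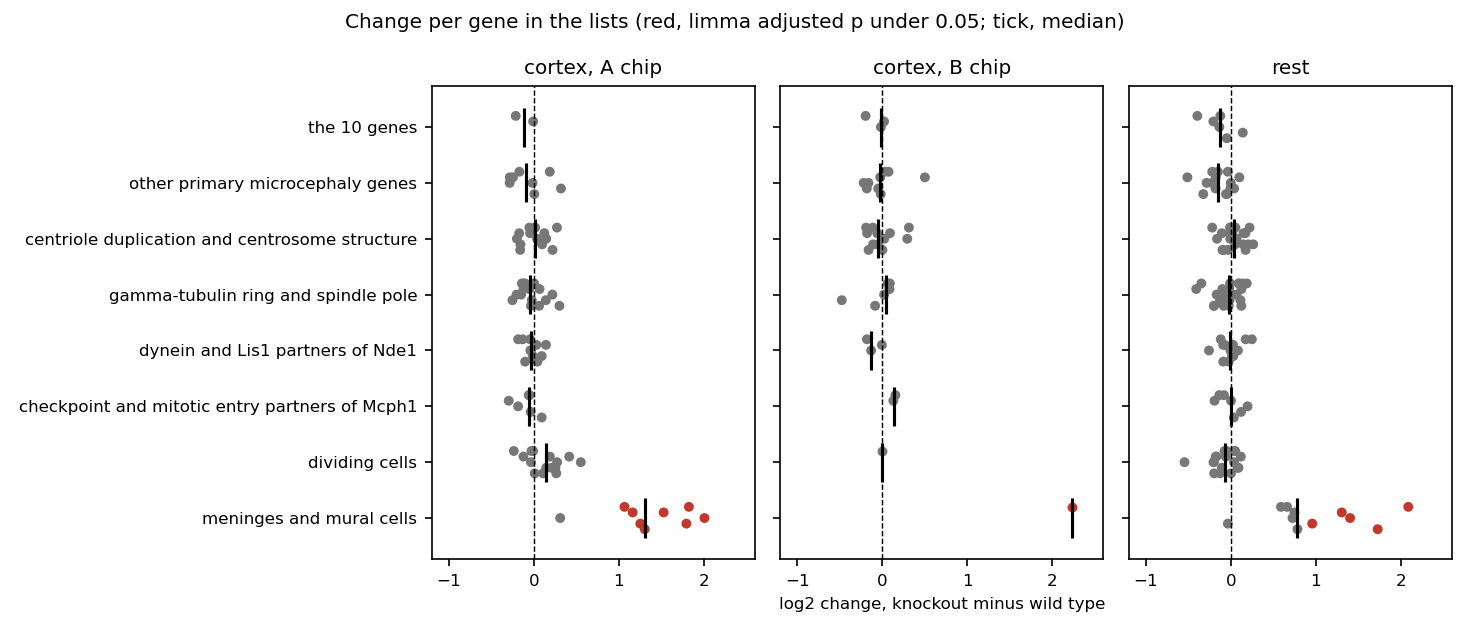
Knockout minus wild-type change of log2(signal + 16) for the genes of each list (1 probe set a gene, points) with the list median (bar), by table. The 10 genes have medians of -0.11, -0.02 and -0.13 on the A chip, the B chip and in rest, and no gene of the lists shown for centrosome, spindle and checkpoint functions was called.

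Markers of the cells that would use these genes were read beside them. Of 25 genes of dividing cells, 15 were tested on the A chip with a median log2 change of 0.15, 1 on the B chip and 18 in rest with a median of -0.07, and none was called. Cdk1, the kinase that starts mitosis, had 133.8, 158.2 and 150.6 in knockout cortex, against 87.3 and 104.1 in wild-type cortex and a blank on wild-type array 3 (log2 change 0.55, SE 0.148, limma adjusted p = 0.0914). The listed groups did not overlap, as in 11.6% of the probe sets tested on the A chip with knockout above. The summed signal of the 10 such genes listed on every A chip array was 1638.0 to 1852.7 in knockout and 1590.4 to 1830.3 in wild type. In rest the sum over 15 genes was 3615.4 to 5104.5 in knockout and 3645.3 to 4890.9 in wild type. Both pairs of ranges overlapped, and Birc5 and Bub1 were blank on all A chip arrays.

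Top2a, the topoisomerase that untangles chromosomes for mitosis, was listed on the cortex B chip through probe set 1442454_at at 146.6, 194.2 and 164.2 in knockout and was blank on all 3 wild-type arrays. This pattern held for 0.244% of the B chip probe sets. The Top2a probe set of the A chip, 1454694_a_at, had 111.8, 101.2 and 91.8 in knockout cortex, against 86.6, 72.7 and 88.8 in wild-type cortex (log2 change 0.25, limma adjusted p = 0.412). Its knockout arrays all lay above its wild-type arrays, and it was not called. The difference of the Cdk1 change between rest and cortex, -0.75 (SE 0.214), was not called either (limma adjusted p = 0.229).

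Of 9 genes of cortical progenitors, 4 were tested on the A chip, with a median log2 change of 0.53, 1 on the B chip (0.10) and 7 in rest, with a median of 0.07, and none was called. The median on the A chip covers Btg2, Hes1, Hes5 and Sox2 alone. Pax6, Eomes and Nes were listed on too few A chip arrays to be tested. At its brightest probe set, Pax6 was listed on 0 knockout arrays and 1 wild-type array, and Eomes and Nes on 1 array of each genotype. The lowest p on the A chip were those of Btg2, which marks progenitors about to make neurons, and Hes1, a Notch target that keeps progenitors dividing. Btg2 had 152.6, 165.0 and 129.2 in knockout cortex, against 109.5, 92.1 and 107.5 in wild-type cortex (log2 change 0.47, SE 0.133, limma adjusted p = 0.101). Hes1 had a blank, 126.2 and 117.5 in knockout cortex, against 79.5, 87.2 and 55.8 in wild-type cortex (log2 change 0.63, SE 0.183, limma adjusted p = 0.115). For both genes the listed knockout values lay above all wild-type values. Sox2, another progenitor factor, had a change of -0.14 on the A chip (limma adjusted p = 0.688).

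Mycn, a growth regulator of neural progenitors and granule cell precursors, was among the 0.713% of A chip probe sets called lower in knockout cortex. It had 76.9, 83.8 and 96.2 in knockout cortex on the A chip, against 167.9, 202.2 and 166.5 in wild-type cortex. The groups did not overlap, as in 10.8% of the A chip probe sets tested with knockout below, and Mycn fell by 0.94 on the log2 scale (SE 0.133, limma adjusted p = 0.00306), though with the term for arrays that list Eif2s3y the change was -0.79 with a limma adjusted p of 0.127. In rest its log2 change was -0.39 (limma adjusted p = 0.557), or -0.08 with that term and -0.20 without wild-type array 3, and the difference between rest and cortex, 0.55 (SE 0.251), was not called (limma adjusted p = 0.462).

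Mycn came from a list of 7 granule cell precursor genes, and the other 2 tested on the A chip lay the other way without being called: the change of Ccnd2, a cyclin of dividing precursors, was 0.46 (limma adjusted p = 0.0643) and that of Zic1 was 0.57 (limma adjusted p = 0.0824). The median of these 3 genes was 0.46, and their summed signal was 1377.1 to 1513.1 in knockout cortex and 1059.1 to 1238.5 in wild-type cortex, without overlap. The median and the sum cover Mycn, Ccnd2 and Zic1 alone, and Zic1 is also a factor of meninges. Atoh1, Gli1 and Barhl1, of the same list, were blank on every A chip array. Whether granule cell precursors differed between knockout and wild-type cortex was therefore not tested.

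In rest, the array that was highest for Aspm and Nde1, wild-type array 3, was also highest for the cerebellar markers En2 and Zic1. En2 had 67.9, 81.1 and 83.7 in knockout, against 109.9, 76.3 and 266.3 in wild type (log2 change -0.67, limma adjusted p = 0.542). Zic1, a factor of granule cell precursors and meninges, had 1475.6, 1221.7 and 1356.4 in knockout and reached 2320.1 on wild-type array 3, against 1457.0 to 1500.6 on the other wild-type arrays. The summed signal of the 4 granule cell precursor genes listed on every array was 2170.3 to 2567.6 in knockout and 2424.6 to 3809.5 in wild type, and Atoh1, which defines those cells, was listed on 2 knockout and 3 wild-type arrays. The part of these markers in the Aspm values was not tested.

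Genes listed for other cell types moved with genotype in the same RNA. There, 2.3% of the probe sets tested on the A chip and 0.145% of those in rest were called higher in knockout. Of the meningeal and mural genes tested, 8 of 9 were called higher in knockout cortex on the A chip, and 0 of the 9 had a change below 0. Their summed signal there was 8342.0 to 10024.9 in knockout and 3344.0 to 3830.9 in wild type. In rest 5 of 11 were called higher and 1 of the 11 had a change below 0, with sums of 12953.9 to 13750.1 in knockout and 5531.3 to 10298.5 in wild type. Of the microglial genes, 7 of 9 were called higher in knockout cortex on the A chip (median log2 change 0.68), and 1 of the 9 had a change below 0. In rest 0 of 8 were called, although none had a change below 0, the median was 0.37 and the summed signals did not overlap, at 4359.0 to 5259.9 in knockout and 3625.0 to 4038.5 in wild type. Among oligodendrocyte genes, 2 of 3 fell in cortex on the A chip: Mbp, a myelin protein, fell by 3.17 on the log2 scale (limma adjusted p = 9.63e-05) and Olig1, a lineage transcription factor, by a log2 change of -0.50 (limma adjusted p = 0.0106). In rest 0 of 5 were called, with all 5 changes below 0, a median of -2.54 and sums over 4 genes of 3370.4 to 10217.5 in knockout and 14395.3 to 15741.4 in wild type. Of the astrocyte genes, 2 of 5 were called higher in knockout cortex on the A chip (Gja1, a gap junction protein, and Aqp4, a water channel), and 1 of the 5 had a change below 0. The summed signal of the 5 was 7240.7 to 9038.6 in knockout cortex and 5977.1 to 6603.5 in wild-type cortex. In rest 0 of 5 were called, with all 5 changes below 0, and the sums overlapped, at 11852.2 to 14191.1 in knockout and 13417.7 to 15058.5 in wild type. The part of these cells in the values of the 10 genes was not tested.

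The probe sets whose signals ran closest to those of Aspm 1422814_at over the 6 rest arrays, by Pearson correlation of log2 signal, were those of Rbmx (r = 0.9920), Zfp687 (r = 0.9883) and Arhgef4 (r = 0.9864). Rbmx, an RNA-binding protein, had 501.4, 435.7 and 536.5 in knockout and 568.7, 513.4 and 619.4 in wild type. As with Aspm, knockout array 2 was lowest and wild-type array 3 highest. Among 17198 probe sets compared, 43 had a correlation over 0.95, and with 6 arrays of 1 table, scaled together, this likeness is a description only.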

How the data were processed

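Total RNA was extracted with TRIZOL and labelled by the standard Affymetrix protocol, per the labels' protocols. The authors deposited linear intensity signals from MAS5, per the submitters' processing notes, with version and settings not given in the sources used here. Why cells are blank is not stated. After removal of controls, arrays within a table were brought to the same 2% trimmed mean of the probe sets with no blank (factors 0.9479 to 1.059), and signals were analysed as log2(signal + 16). Blanks were treated as missing, and probe sets listed on at least 2 arrays of each genotype were tested, 12065 on the cortex A chip, 7838 on the B chip and 21407 in rest. Levels were never compared across tables.

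Each table's knockout and wild-type arrays were compared in R 4.3.3 by limma 3.58.1 (lmFit, eBayes with an intensity trend, no covariate) and Benjamini-Hochberg adjustment over the table, a procedure tested on simulated data. A joint limma fit on 11959 shared probe sets tested the difference between rest and the A chip. Apart from the 3 animals of each genotype named for cortex, nothing says how replicates were taken, so p-values measure the spread between these arrays. Gene symbols came from the array annotation, brought up to date through RefSeq identifiers.

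The members and gene lists were chosen with earlier results of these data known. Named genes are all member probe sets, Brca1, and from each other list the called genes (up to 4) or, with none called, up to 2 with the lowest p. For a list, 1 probe set a gene was used. Top2a, En2, Zic1, Ccnd2, Sox2, Neurod6, Tbr1, Emx1 and Slc17a6 are shown as cell type markers, some of them chosen after their values were seen. The same holds for Pcp2, Cx3cr1, P2ry12, Cnp, Pax6, Eomes, Nes, Atoh1, Gli1 and Barhl1. Alternatives were other scalings, offsets of 1 and 64, filters, treatment of blanks, eBayes settings, a replicate block, a sex-marker term, an adjusted p of 0.10 and leaving out each array.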

Additional observations from a re-analysis of the deposited data

How the results depend on the processing

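No member probe set was called in any comparison under any alternative, the lowest adjusted p being 0.319 for Aspm in rest with the replicate block. Of all probe sets, 364 were called on the cortex A chip, 22 on the B chip, 67 in rest and 6 for the difference between rest and cortex. With the sex-marker term these counts were 82 on the A chip, 10 in rest and 0 for the difference (limma, with 649 of 11776 at an unadjusted p under 0.05), and on the B chip 32, with 11 higher and 21 lower in knockout, against 18 higher and 4 lower without the term. With blanks set to a low signal they were 1 on the B chip and 23 in rest. Without an intensity trend they were 9, 11 and 3 on the B chip, in rest and for the difference, and an offset of 64 gave 3 for the difference. At an adjusted p of 0.10 they were 608, 48, 161 and 16. Leaving out 1 array gave 192 to 313 on the A chip, 10 to 27 on the B chip, 20 to 76 in rest and 3 to 27 for the difference. With the replicate number as a block the counts were 302, 12 and 142 on the A chip, the B chip and in rest. For the difference the block joined cortex and rest arrays of the same genotype and number, which gave 7. The main fit of the difference treated all arrays as independent. Deviations of same-numbered arrays from their group means correlated at 0.009, 0.019 and -0.009 for cortex A. They correlated at 0.159, 0.072 and 0.141 for cortex B and at 0.023, 0.067 and 0.251 for rest. Knockout and wild-type arrays of different number correlated at -0.052 to 0.043, -0.164 to 0 and -0.203 to 0.143 in these tables. On the B chip every same-numbered value thus lay above every other value, and in the other tables they overlapped. The labels do not say that the numbers pair the arrays, so the main fit did not pair them.

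Directions turned with the sex-marker term for Mcph1 1439115_at on the B chip (-0.04), Pcnt in rest (0.28), the Aspm and Nde1 differences between rest and cortex (0.35 and 0.12), and Top2a in rest (0.45). With that term Cep63 on the B chip had 0.23. Leaving out 1 array gave ranges that cross 0 for Nde1 (-0.10 to 0.05 on the A chip, -0.25 to 0.11 in rest), Mcph1 1429911_at on the B chip (-0.09 to 0.11), Cep63 on the B chip (-0.09 to 0.15), Pcnt in rest (-0.53 to 0.28), Brca1 in rest (-0.10 to 0.19), the Aspm difference (-0.38 to 0.02) and the Nde1 difference (-0.24 to 0.12) and, outside the 10 genes, for Top2a in rest (-0.49 to 0.05). The Cdk1 change on the A chip passed at an adjusted p of 0.10, and Zic1 on the B chip passed without wild-type replicate 3 (1.17). The Mycn call on the A chip was lost with the sex-marker term alone. Probe sets with a blank have no value under the filter for all 6 arrays, which concerns Aspm, Cdk1 and Cdc25a on the A chip, Tpx2 on the B chip and Pcnt and Cenpj in rest. Tpx2 also has no value with the replicate block or the sex-marker term. The causes were not tested.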
